A study of Homo sapiens with 30 samples.

Results

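Cell cycle and DNA replication genes are described here in MEL624, a human melanoma cell line, by the RNA fragments that cover their transcription starts. Of 32 listed symbols, 31 had a row among the 16009 genes of the deposited table, and CDT1 had none. The rule took the rows of listed symbols. They were read as 15 S phase members (MCM2 to MCM7, PCNA, RRM1, RRM2, TYMS, CDC6, E2F1, GINS2, FEN1 and CCNE2) and 16 mitotic members (MKI67, TOP2A, CCNB1, CCNB2, CCNA2, CDK1, PLK1, AURKA, AURKB, BUB1, BUB1B, BIRC5, CDC20, TPX2, KIF11 and KIF20A). The MCM, PCNA and RRM genes form a core of 9 within the S phase class.

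The control cells were MEL624 cells labelled wild type that carried a random sgRNA, and the other cells carried a knockout (KO) of PCIF1. From each genotype there were 3 input libraries of capped 5' fragments and 3 libraries of the same material after immunoprecipitation (IP) with antibody 4, an m6A antibody. These 12 second-stage libraries make 4 groups of 3. The 18 first-stage libraries, which compared 8 antibodies with 1 library each, were not analysed here. The design text names the second-stage samples biological replicates, without saying whether the KO cells were 1 clone, so that loss of PCIF1 and a property of a clone cannot be told apart.

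PCIF1 is the methyltransferase that makes m6Am, a methylated adenosine next to the cap of mRNAs that begin with A. The protocol digests RNA without a cap and keeps 5' ends, and an m6A antibody also binds m6Am. E2F factors switch on replication genes late in G1 and S phase. Many mitotic genes are instead held down early in the cycle by the DREAM complex and activated in G2 by B-MYB and FOXM1, often through CHR and CCAAT elements of their promoters.

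Levels are read counts over the start region as scaled in the deposited table (CPM), and differences are on the log2 CPM scale. The control IP with 4625190 reads had 0.233 CPM a read. That is more than its reads alone would give, so that a further scaling had been applied. "Enrichment" is the IP level minus the input level of the same genotype. The "enrichment difference" is the enrichment in control cells minus that in KO cells, so that a positive value means less enrichment after PCIF1 loss. Each difference comes with its standard error (SE) from limma, fitted over all 12 libraries and all genes, and calls were made where the p adjusted by Benjamini and Hochberg over all genes was below 0.05. Enrichment and depletion are relative to the scaling of the deposited table. Centring each library on 80 ribosomal protein mRNAs instead turned the sign of 13 members in control cells and 6 in KO cells. Only turns where either value was called are counted. This centring subtracts a single value from each library, so that within a comparison it moves every gene by the same amount. All comparisons below share groups, and each enrichment difference uses all 4 groups. With 3 libraries a group, p-values set a difference against the spread between these libraries. That spread is pooled over the 4 groups and moderated by the trend over all genes.

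The reads recovered from the table numbered 3232562 to 4094070 in the control inputs, 2836120 to 3544669 in the KO inputs, 4035815 to 4625190 in the control IPs and 1753164 to 2177874 in the KO IPs, which were the shallowest. No pair of replicates agreed within sampling noise. PCIF1 itself stood at 49.4 to 57.9 CPM in the control inputs and at 70.4 to 78.0 CPM in the KO inputs, and reads over a start do not check an edit elsewhere in the gene. Of 10 melanocyte lineage markers, only MITF (mean 10.3 CPM in control inputs and 10.1 CPM in KO inputs) and PAX3 (17.8 and 34.6 CPM) had rows, and SOX10, PMEL, MLANA, TYR, TYRP1, DCT, S100B and GPR143 had none. None of the 24 markers of keratinocytes, fibroblasts, leukocytes and endothelium had a row.

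The annotated start sites are shown first for the members whose enrichment differed between genotypes, because m6Am can sit only on an mRNA that begins with A. RefSeq starts (GRCh38.p14) were matched for 25 of the 31 members, and for 12 of the 14 with a called enrichment difference. Each line holds 15 bases before the start, the annotated first base as a capital, and 14 bases after it.
PCNA, chr20:5119944-5119973, minus strand: tgcggacgcggcggcAttaaacggttgcag
TYMS, chr18:657638-657667, plus strand: tcctgccaccgcgccActtggcctgcctcc
MCM2, chr3:127598396-127598425, plus strand: gggtcacgtgaaccaCttttcgcgcgaaac
MCM3, chr6:52284728-52284757, minus strand: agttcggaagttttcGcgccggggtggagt
MCM6, chr2:135876429-135876458, minus strand: gcggcggcggcgcgcGcaaagctgcagcgt
E2F1, chr20:33686371-33686400, minus strand: cgcgtaaaagtggccGggactttgcaggca
CCNA2, chr4:121823869-121823898, minus strand: aacagccgccgctccGgcgggctgctcgct
CCNB2, chr15:59105131-59105160, plus strand: caaggctacagcgtcGaagatccccagcgc
AURKB, chr17:8210235-8210264, minus strand: cccttctccgcccagCtctcctcccccttt
CCNB1, chr5:69167135-69167164, plus strand: aggctggctcttctcGgcgtgctgcggcgg
CDK1, chr10:60778463-60778492, plus strand: agtttgaaactgctcGcacttggcttcaaa
TOP2A, chr17:40417882-40417911, minus strand: aagtggagctctcctAaccgacgcgcgtct
Of these 12, PCNA, TYMS and TOP2A begin with A in the annotation. The other RefSeq starts with A belonged to BUB1, CDC6, KIF11, MCM7 and MKI67. An annotated start is 1 position, while a gene can be transcribed from several neighbouring ones, and the AURKB start shown lies 326 bases from the GENCODE 44 canonical start.

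Across the 4 groups, 31 members had levels from below 1 CPM (CCNE2) to above 1000 CPM (TYMS in control IPs). Within a member the 3 libraries of a group mostly lay close together, less so at low reads, as the plot of all members shows. KO input 3 stood apart for some mitotic members with ample reads. It was lower for PLK1 (KO inputs of 401, 398 and 321 CPM) and CDC20 (337, 332 and 242 CPM). For KIF11 it was higher (55.5, 49.6 and 73.5 CPM). The KO IPs of PLK1 held 331, 319 and 213 CPM.

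**Figure D1:**
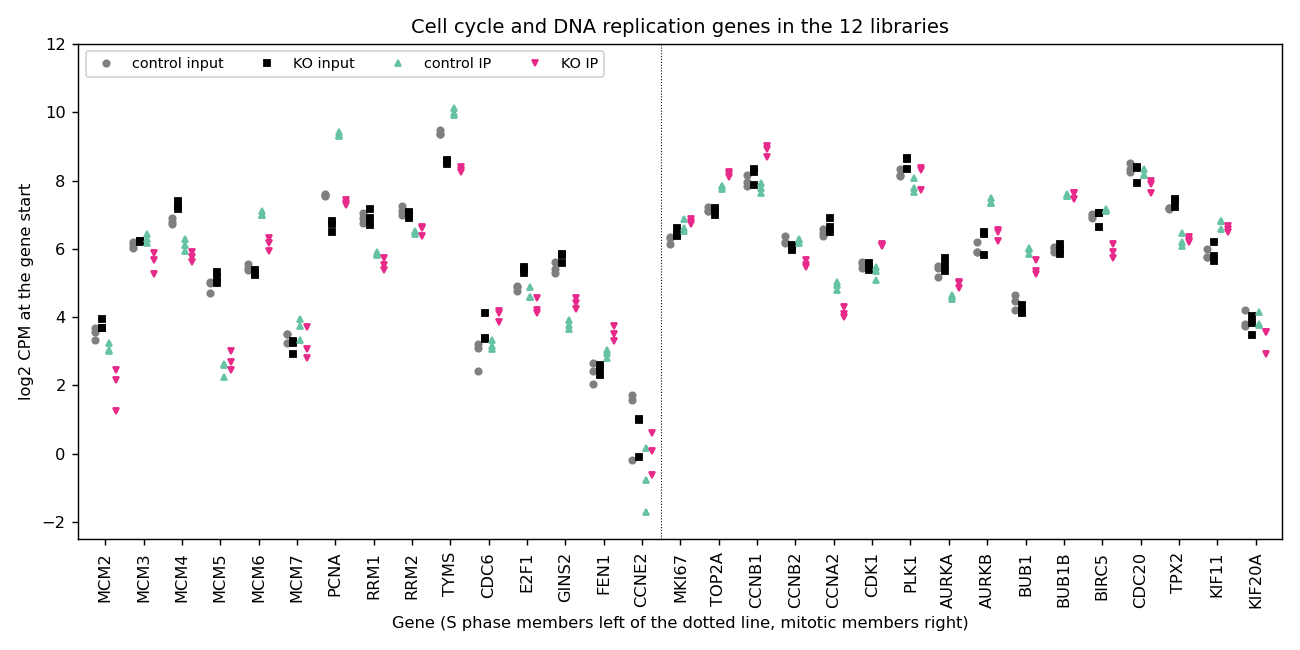
Level of the 31 members in the 12 libraries. The y axis gives log2 CPM at the gene start, each symbol is 1 library, and the 4 symbol types stand for control input, KO input, control IP and KO IP. PCNA and TYMS are the members whose KO inputs and KO IPs both lie below all control libraries of the same kind by the widest steps, while CCNB1 and CDK1 have KO IPs above their control IPs.

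PCNA, the sliding clamp of DNA polymerases, stood at 185, 193 and 192 CPM in the control inputs and at 113, 107 and 90.7 CPM in the KO inputs. The control IPs held 637, 651 and 690.1 CPM and the KO IPs 162, 172 and 157 CPM. Every KO library lay below every control library of its kind, with no overlap. PCNA input fell by 0.89 on the log2 scale in KO cells (SE 0.09, adjusted p = 1.98e-06), and PCNA IP fell by 2.01 (SE 0.09, adjusted p = 6.59e-12). Enrichment of PCNA was 1.79 in control cells and 0.67 in KO cells. The enrichment difference was 1.12 (SE 0.13, adjusted p = 3.04e-06), the smallest adjusted p among the members. The table lists PCNA as ENSG00000132646.

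TYMS makes thymidylate for DNA synthesis and stood at 665, 654 and 715 CPM in the control inputs against 357, 392 and 383 CPM in the KO inputs. The control IPs held 1116, 968 and 1002 CPM, and the KO IPs 318, 336 and 307 CPM. Here too the groups did not overlap, for inputs or for IPs. TYMS input fell by 0.85 in KO cells (SE 0.09, adjusted p = 1.56e-06). Its enrichment was 0.60 in control cells (adjusted p = 5.52e-06) and -0.24 in KO cells (adjusted p = 0.0231), a difference of 0.84 (SE 0.12, adjusted p = 3.66e-05). The negative KO enrichment lost its call without KO input 2 (-0.21), KO IP 1 (-0.23) or KO IP 3 (-0.21) and with libraries centred on their medians (-0.16, adjusted p = 0.118), and centring on ribosomal protein mRNAs turned it to a called enrichment of 0.35 (adjusted p = 0.00896). A second gene, TYMSOS, runs over the TYMS start on the opposite strand, and the strand setting of the counting is not given in the sources used here, so that TYMS reads are uncertain in origin.

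**Figure D2:**
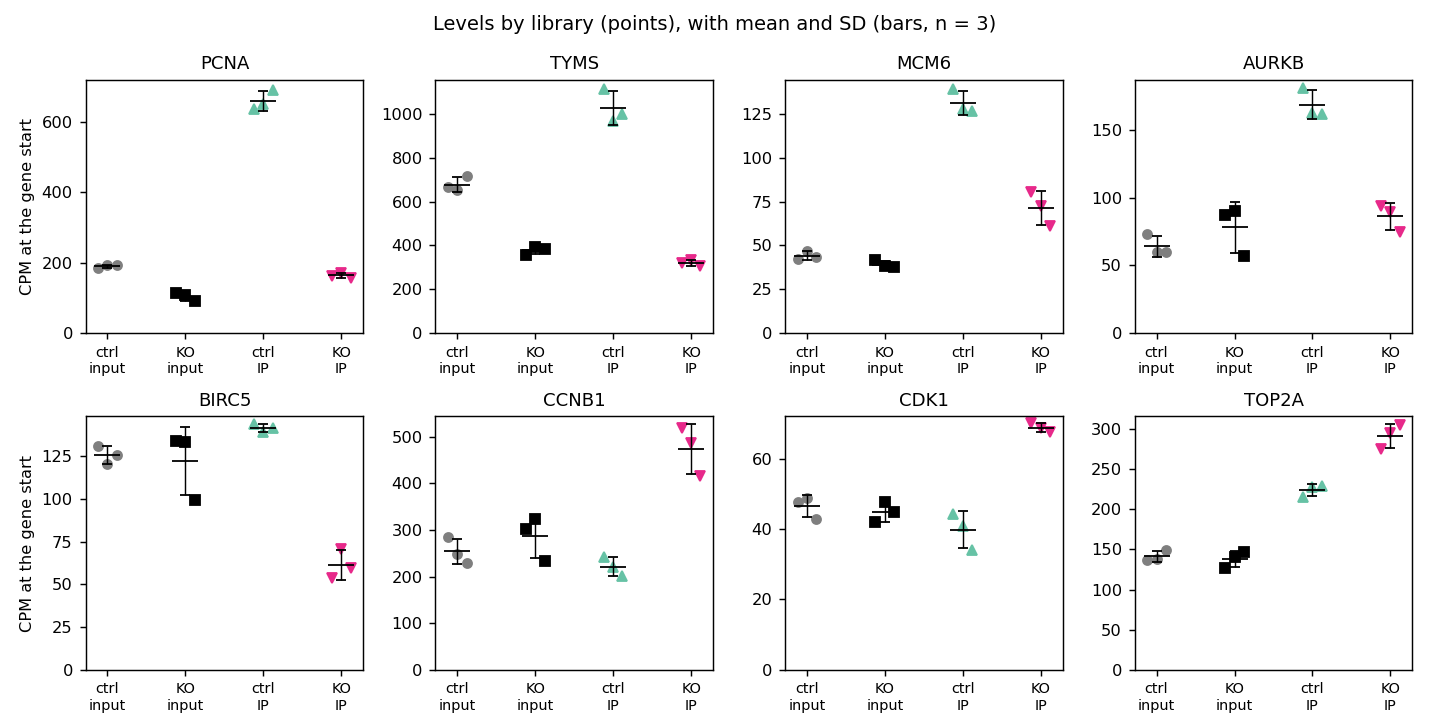
Level of 8 members in each library. The y axis of each panel gives CPM at the gene start on a linear scale from 0, points are libraries, and bars give the mean and the SD of 3 libraries for control input, KO input, control IP and KO IP. PCNA and TYMS are lower in both KO groups, MCM6, AURKB and BIRC5 are lower in the KO IPs, and CCNB1, CDK1 and TOP2A are higher there. Centring on ribosomal protein mRNAs ends the call of the CDK1 rise and turns the sign of TOP2A.

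The replicative helicase, MCM2 to MCM7, unwinds DNA at the fork. MCM6 stood at 42.0, 46.8 and 43.6 CPM in the control inputs and at 41.4, 38.2 and 37.4 CPM in the KO inputs. Its control IPs held 139, 128 and 127 CPM and its KO IPs 80.5, 72.6 and 61.3 CPM. The inputs of the genotypes nearly met and their IPs were well apart. MCM6 enrichment was 1.57 in control cells and 0.87 in KO cells, both called, with a difference of 0.71 (SE 0.16, adjusted p = 0.0024).

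MCM3 stood at 69.4, 73.8 and 65.5 CPM in the control inputs, at 74.7, 73.4 and 75.8 CPM in the KO inputs, at 86.0, 78.3 and 71.9 CPM in the control IPs, and at 51.6, 38.5 and 59.0 CPM in the KO IPs. The inputs overlapped and the KO IPs all lay below the control IPs. Its enrichment difference was 0.78 (SE 0.19, adjusted p = 0.00338). MCM4 was the 1 MCM gene with a called input change. Its input rose in KO cells from 111, 119 and 106 CPM to 154, 145 and 168 CPM, a step of 0.47 (SE 0.11, adjusted p = 0.00823). Its IP moved the other way, from 69.5, 78.3 and 61.0 CPM to 59.9, 49.3 and 53.9 CPM, a change of -0.35 (SE 0.11, adjusted p = 0.0133) that lost its call without control IP 2 (-0.26) or KO IP 2 (-0.28). The MCM4 enrichment difference was 0.83 (SE 0.16, adjusted p = 0.000562).

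MCM2 had few reads. Its inputs held 13.0, 10.2 and 11.8 CPM in control cells and 15.3, 12.8 and 12.7 CPM in KO cells, and its IPs 7.99, 8.21 and 9.47 CPM against 5.47, 4.46 and 2.37 CPM, the last group resting on 11, 9 and 4 reads. The enrichment difference of 1.37 (SE 0.39, adjusted p = 0.0126) was the largest of the members with a wide 95% interval, 0.55 to 2.19. The start of TPRA1 on the opposite strand lies within 500 bases of the MCM2 start. MCM5 and MCM7 had no called difference. MCM5 was strongly depleted from the IPs of both genotypes, by -2.41 in control and -2.45 in KO cells, with an enrichment difference of 0.04 and a 95% interval from -0.55 to 0.63. For MCM7 the difference was 0.22, with an interval from -0.54 to 0.97.

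Ribonucleotide reductase supplies deoxynucleotides and is made of RRM1 and RRM2. RRM1 stood at 120.5, 132 and 108 CPM in the control inputs and at 143, 119 and 105 CPM in the KO inputs, with IPs of 59.5, 57.0 and 57.7 CPM and of 45.7, 52.7 and 41.9 CPM. RRM2 inputs ran from 127 to 153 CPM in control and from 119 to 136 CPM in KO cells, and its IPs from 87.1 to 91.6 CPM and from 84.0 to 100.2 CPM. Both genes were depleted by the antibody in both genotypes, where centring on ribosomal protein mRNAs turned RRM1 in control cells (0.0873) and RRM2 in both (0.50 and 0.14). Neither enrichment difference was called (RRM1 0.34, interval -0.03 to 0.70, and RRM2 -0.18, interval -0.48 to 0.12).

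E2F1, the transcription factor that activates this gene class, rose in the KO inputs from 27.2, 30.1 and 29.3 CPM to 44, 39.3 and 42.6 CPM. The IPs went from 29.7, 24.0 and 23.9 CPM in control cells to 23.6, 18.6 and 17.2 CPM in KO cells. The inputs did not overlap, and the highest KO IP lay just below the lowest control IP. The input change of 0.54 (SE 0.15, adjusted p = 0.0213) lost its call without control input 1 (0.50), control input 2 (0.57), control input 3 (0.55), KO input 1 (0.51) or KO input 3 (0.53). The enrichment difference was 0.93 (SE 0.21, adjusted p = 0.00229).

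The remaining S phase members had no called enrichment difference. CDC6, which loads the helicase at origins, held 5.35 to 9.21 CPM in the control inputs and 10.4 to 17.3 CPM in the KO inputs. The input change of CDC6 was 0.72, without a call in the main fit (adjusted p = 0.0741) and with a call in limma voom (adjusted p = 0.0353). Its KO IPs (14.4 to 18.1 CPM) lay above its control IPs (8.45 to 10.0 CPM), an IP change of 0.86 with adjusted p = 0.00845, which was 0.36 (adjusted p = 0.267) with centring on ribosomal protein mRNAs. GINS2, a subunit of the active helicase, was depleted in both genotypes (-1.66 and -1.35), and its IP rose by 0.62 in KO cells (adjusted p = 0.00148), a value of 0.13 (adjusted p = 0.474) with that centring. FEN1, the flap nuclease of lagging-strand synthesis, held 4.11 to 13.3 CPM over all libraries, and its start lies inside FADS2 on the same strand, so that its reads may be those of FADS2. CCNE2, a cyclin of the G1 to S transition, had 1 read in its poorest library and at most 3.28 CPM. Its enrichment difference of -1.20 has an interval from -3.25 to 0.85, so that at this depth no difference between the genotypes was detectable. Its depletion in control cells (-1.81, adjusted p = 0.033) lost its call without control input 2 (-1.47), control input 3 (-1.53), control IP 1 (-1.34) or control IP 3 (-1.80), with centring on ribosomal protein mRNAs (-0.67), and with the 2 control groups fitted alone.

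Cyclins and CDK1 had called differences of both signs. CDK1 drives entry into mitosis and CCNB1 is its main partner there. CCNB1 inputs held 284, 249 and 229 CPM in control cells and 302, 323 and 234 CPM in KO cells. Its control IPs held 242, 221 and 201 CPM and its KO IPs 519.5, 487 and 415 CPM. The inputs overlapped, and every KO IP was above every control IP. Enrichment of CCNB1 was -0.20 in control cells (adjusted p = 0.177) and 0.73 in KO cells (adjusted p = 2.98e-05), a difference of -0.93 (SE 0.17, adjusted p = 0.00038). The control value was 0.94 (adjusted p = 2.94e-07) with centring on ribosomal protein mRNAs, and a block by column number left it at -0.20 with a call (adjusted p = 0.0192).

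CDK1 showed the same arrangement, with inputs of 47.6, 48.9 and 43.0 CPM against 42.0, 47.7 and 44.9 CPM. Its IPs held 44.3, 41.0 and 34.1 CPM in control cells and 70.2, 68.7 and 67.6 CPM in KO cells. The inputs of the genotypes overlapped and the IPs did not. The CDK1 enrichment difference was -0.85 (SE 0.17, adjusted p = 0.000761). With each library centred on ribosomal protein mRNAs, the differences of CCNB1 (-0.39, adjusted p = 0.0622) and CDK1 (-0.31, adjusted p = 0.209) were no longer called.

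CCNA2, the cyclin of S phase and G2, went the opposite way. Its inputs held 88.8, 83.0 and 95.2 CPM in control cells and 100.5, 89.9 and 119 CPM in KO cells, while its IPs held 31.0, 27.9 and 32.6 CPM against 19.7, 17.1 and 16.1 CPM. The KO IPs all lay below the control IPs and the inputs overlapped. The antibody depleted CCNA2 in both genotypes, by -1.55 and -2.54, and the difference was 0.998 (SE 0.18, adjusted p = 0.000346). CCNB2, the other B-type cyclin listed, had IPs of 76.9, 72.2 and 78.5 CPM in control and 46.2, 43.9 and 51.0 CPM in KO cells, with inputs from 72.5 to 83.1 CPM and from 63.1 to 69.2 CPM. Its IPs and its inputs were both apart, the inputs by a narrow gap and without a call (-0.20, adjusted p = 0.255). Its enrichment difference was 0.49 (SE 0.15, adjusted p = 0.0176), which missed the threshold without control input 3 (0.45, adjusted p = 0.0503). Thus the B-type cyclins CCNB1 and CCNB2 had called differences of opposite sign, and the difference between these genes was not itself tested.

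AURKB and BIRC5 (survivin) belong to the chromosomal passenger complex, which corrects kinetochore attachments and drives cytokinesis. AURKB inputs held 73.2, 59.9 and 59.6 CPM in control cells and 87.3, 90.2 and 56.6 CPM in KO cells. Its IPs held 181, 163 and 162 CPM against 93.8, 89.7 and 75.1 CPM. The inputs overlapped because of KO input 3 alone, and the IPs were well apart. The AURKB enrichment difference was 1.23 (SE 0.21, adjusted p = 0.000177). Without KO input 3, its input change was called as well (0.47, adjusted p = 0.0208, against 0.26 with it).

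BIRC5 inputs held 131, 121 and 126 CPM in control cells and 134, 133 and 99.5 CPM in KO cells. Its control IPs held 144, 139 and 142 CPM, and its KO IPs 53.5, 70.7 and 59.6 CPM. Again the inputs overlapped and the IPs did not. Enrichment was 0.17 in control cells (adjusted p = 0.236) and -0.99 in KO cells (adjusted p = 6.01e-07), a difference of 1.16 (SE 0.17, adjusted p = 3.94e-05). The other subunits, INCENP (0.67, SE 0.23, adjusted p = 0.0377) and CDCA8 (0.41, SE 0.18, adjusted p = 0.0931), were looked up after the values of AURKB and BIRC5 had been seen.

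TOP2A, the topoisomerase that untangles chromosomes, was enriched in both genotypes. Its inputs held 137, 138 and 149 CPM in control cells and 127, 140.3 and 147 CPM in KO cells, and its IPs 215, 228 and 229 CPM against 275, 295 and 305 CPM. The inputs overlapped and the KO IPs were all higher. Its enrichment difference of -0.42 (SE 0.13, adjusted p = 0.0168) missed the threshold without control input 3 (-0.38) or KO input 1 (-0.36), and it turned to 0.13 (adjusted p = 0.572) with libraries centred on ribosomal protein mRNAs. MKI67, the proliferation marker that coats mitotic chromosomes, was also enriched in both genotypes, by 0.41 and 0.33, with a difference of 0.08 and an interval from -0.25 to 0.41. Its KO enrichment lost its call without KO input 1 (0.28), KO input 2 (0.30) or KO IP 2 (0.28).

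The spindle checkpoint kinases BUB1 and BUB1B were the mitotic members with the highest enrichment in both genotypes. BUB1B inputs held 60.3, 65.8 and 64.0 CPM in control cells and 62.9, 58.0 and 70.2 CPM in KO cells, and its IPs 186, 194 and 188 CPM against 176, 197 and 198 CPM. Both kinds of library overlapped between genotypes. BUB1B enrichment was 1.58 in both, with a difference of -0.00 and an interval from -0.29 to 0.28. BUB1 enrichment was 1.51 and 1.22, with an interval of the difference from -0.15 to 0.73. BUB1 begins with A in the annotation and BUB1B with G.

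For the other mitotic members no enrichment difference was called. PLK1, the kinase that drives spindle assembly, had a difference of 0.02 (interval -0.41 to 0.44), and AURKA, the centrosomal Aurora kinase, -0.21 (interval -0.61 to 0.19). CDC20, which activates the anaphase-promoting complex, had 0.23 (interval -0.13 to 0.60). The spindle factor TPX2 had 0.17 (interval -0.14 to 0.49), and the kinesins KIF11 and KIF20A had 0.18 (interval -0.20 to 0.57) and 0.42 (interval -0.25 to 1.10). TPX2 and AURKA were depleted in both genotypes, with a turned sign after centring on ribosomal protein mRNAs for TPX2 in control cells (0.20) and for AURKA in both (0.35 and 0.0197). KIF11 was enriched in both (0.89 and 0.71). Starts of other genes lie within 500 bases on the opposite strand for AURKA (CSTF1), CDC20 (CDC20-DT), KIF20A (BRD8), MCM7 (AP4M1), CCNE2 (NDUFAF6) and FEN1 (MIR611 and TMEM258), and for BUB1, CCNB1, TPX2 and TYMS an unnamed gene does, so that some of their reads are uncertain in origin.

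**Figure D3:**
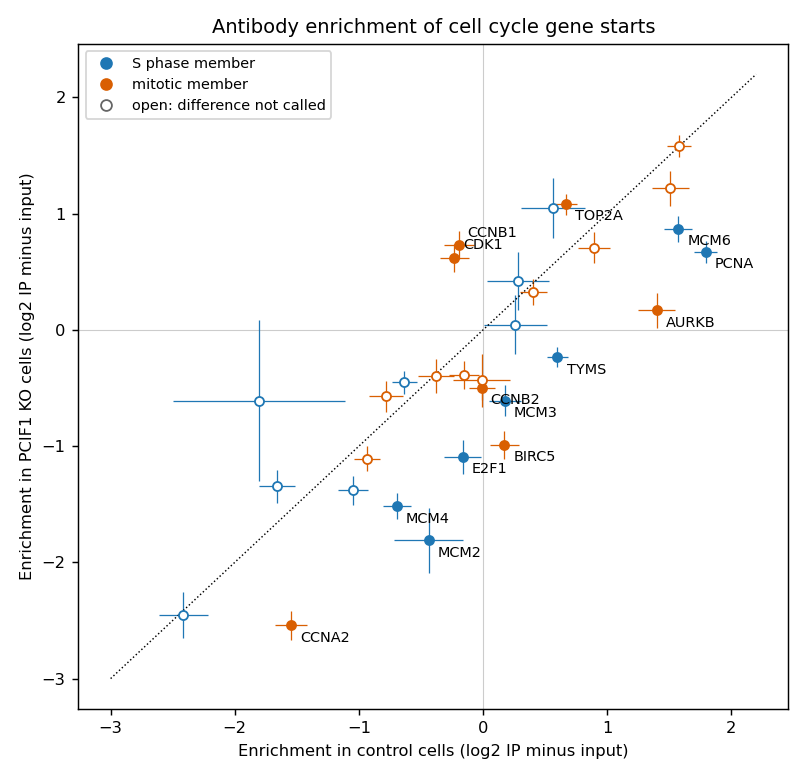
Enrichment of each member in control cells (x axis) against KO cells (y axis), both as log2 IP minus input, with bars of 1 SE and a dotted line of equal enrichment. Filled points have a called enrichment difference. Of these, 11 lie below the line and CCNB1, CDK1 and TOP2A above it, and centring on ribosomal protein mRNAs ends the calls of those 3 and turns the sign of TOP2A.

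Set side by side under the deposited scaling, the called differences of the S phase class were positive, and those of the mitotic class had both signs. In the enrichment difference, 14 of 31 members were called, against 28.8% of all genes tested. Among S phase members 7 were positive and 0 negative of 15, and 0 were negative also at an unadjusted p below 0.05 and with limma voom. The called S phase members were MCM2, MCM3, MCM4, MCM6, PCNA, TYMS and E2F1, and 5 of the 9 core genes were among them. Among mitotic members 4 were positive (CCNA2, CCNB2, AURKB and BIRC5) and 3 negative (CCNB1, CDK1 and TOP2A) of 16. Of all genes, 15.8% were called positive and 13% negative. The median enrichment difference was 0.34 over the S phase members, 0.71 over the core, 0.18 over the mitotic members, 0.06 over all genes and 0.18 over the 12047 protein-coding genes, the type to which all members belong. Of these protein-coding genes 19.9% were called positive and 10.2% negative. At that 10.2% share, 15 members are too few for 0 negative calls to set the S phase class apart. Wider lists of replication genes (17 positive and 3 negative of 55) and mitosis genes (14 and 4 of 57) both had calls of either sign. The difference between the classes was not tested. Centring on ribosomal protein mRNAs, which moved the median of all genes to 0.60, gave 8 positive and 0 negative S phase members and 12 positive and 0 negative mitotic members. The share of all genes called with that centring is not set beside these counts.

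**Figure D4:**
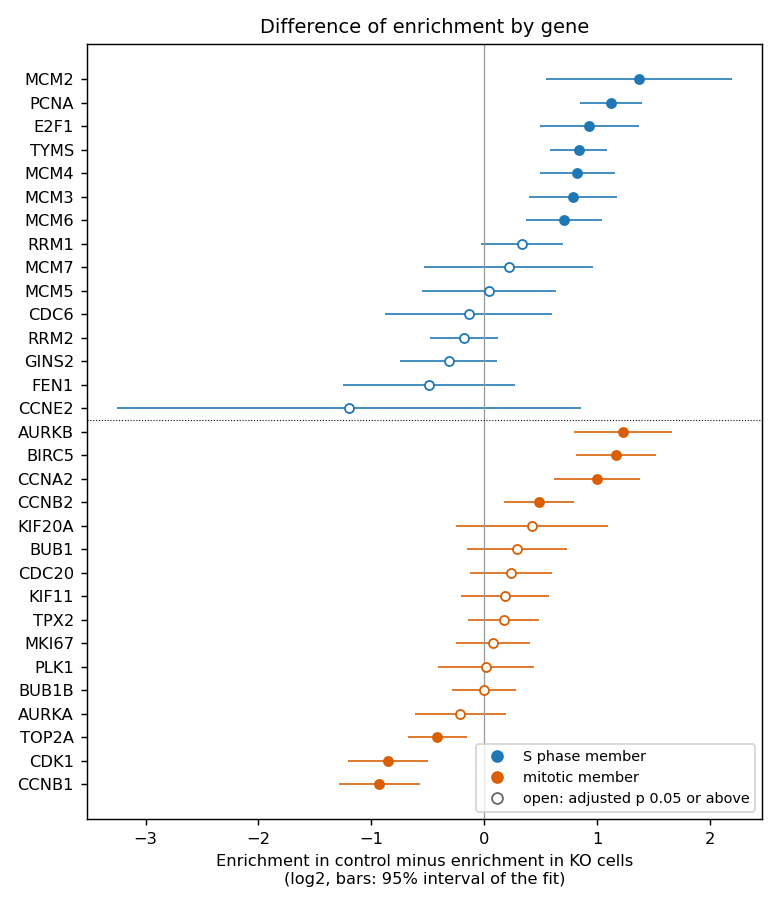
Enrichment in control cells minus enrichment in KO cells for the 31 members, on the log2 scale, with the 95% interval of the fit. S phase members stand above the dotted line and mitotic members below, and filled points were called. The 7 called S phase members are all positive, while the 7 called mitotic members are 4 positive and 3 negative. With centring on ribosomal protein mRNAs the 3 negative ones lose their calls, where CCNB1 and CDK1 stay negative and TOP2A turns positive.

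Enrichment within each genotype gives the parts of this contrast. In control cells 9 members were called enriched and 10 depleted, where 27.7% of all genes were enriched and 28.2% depleted, 55.9% in all. In KO cells 10 were called enriched and 16 depleted, where 28.4% and 31% of all genes were, 59.4% in all. S phase members went from 3 enriched and 6 depleted in control cells to 3 and 9 in KO cells, and their median from -0.16 to -0.61. Mitotic members went from 6 and 4 to 7 and 7, and their median from -0.01 to -0.11, where all genes had medians of -0.01 and -0.07 and protein-coding genes of 0.03 and -0.16. Centring on ribosomal protein mRNAs moved these all-gene medians to 1.12 and 0.52, and the members' counts to 25 enriched and 3 depleted in control cells and to 14 and 9 in KO cells. These counts follow a shift shared by all genes and are not a result about the members. The share of all genes called with that centring is not set beside them.

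Between the IPs of the genotypes, 21 members were called, 6 higher and 15 lower, against 49% of all genes, 23% higher and 26% lower. Of the S phase members 2 were higher in KO IPs (CDC6 and GINS2) and 8 lower, and of the mitotic members 4 were higher (CCNB1, CDK1, TOP2A and AURKA) and 7 lower (AURKB, BIRC5, CCNA2, CCNB2, BUB1, CDC20 and KIF20A). AURKA (0.38, adjusted p = 0.0265), CDC20 (-0.38, adjusted p = 0.0159), KIF20A (-0.56, adjusted p = 0.0467), RRM1 (-0.32, adjusted p = 0.0374) and E2F1 (-0.39, adjusted p = 0.036) are weak cases. Each lost its call without single libraries, for example without KO IP 3 for CDC20 (-0.28), KIF20A (-0.35), RRM1 (-0.24) and E2F1 (-0.30), and without KO IP 1 for AURKA (0.34). Centred on ribosomal protein mRNAs, 1 member was higher and 21 were lower, with the median of all genes moved from -0.04 to -0.54 and the signs of TOP2A (-0.11) and AURKA (-0.12) turned. CDK1 stayed higher without a call (0.30, adjusted p = 0.0623). These counts follow a shift shared by all genes, and the share of all genes called with that centring is not set beside them.

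In the inputs, which measure the amount of capped 5' ends, few members changed. Of 31 members 4 were called, 2 in each direction, against 11.2% of all genes, 5.56% higher and 5.67% lower. All 4 are S phase genes, with TYMS and PCNA lower and MCM4 and E2F1 higher in KO cells. No mitotic member was called by limma over all 12 libraries, 1 (PLK1, 0.33, adjusted p = 0.17) had an unadjusted p below 0.05, and limma voom called 1, PLK1 (adjusted p = 0.0498). Fitted on the input groups alone PLK1 was called (adjusted p = 0.0435), and without KO input 3 AURKB was (0.47, adjusted p = 0.0208). The median input change was 0.09 over S phase members, 0.02 over mitotic members and -0.02 over all genes. Summed over the 15 S phase members, the KO inputs held 1176 ± 17.9 CPM (SD, n = 3) and the control inputs 1494 ± 7.71 CPM. The members of that sum called lower were TYMS (means of 678 CPM in control and 377 CPM in KO inputs) and PCNA (190 and 103 CPM). Their joint fall exceeded that of the sum, so that the other S phase members did not fall in total. The mitotic sum was 1974 ± 160 CPM (SD, n = 3) in KO inputs and 1849.7 ± 94.9 CPM in control inputs. The sums ran from 1790 to 2067 CPM in KO inputs and from 1776 to 1957 CPM in control inputs. They overlapped through KO input 3 alone.

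PCNA and TYMS, the members with lower input, have neighbours on their chromosomes that were lower too. Within 5 Mb of PCNA, 27 of 42 other protein-coding genes with a mean log2 CPM of at least 3 were called lower in KO inputs and 1 higher, with a median of -0.45. Around TYMS 8 of 11 were lower and 1 higher, with a median of -0.65. Among all 8626 protein-coding genes at this level, 6.91% were lower and the median was 0.00. On chromosome 18, 100 genes more than 20 Mb from TYMS had a median of 0.44, with 48 called higher and 4 lower. On chromosome 20, 169 genes more than 20 Mb from PCNA had a median of 0.02. Of the other members, the share of lower neighbours was highest around MCM3, at 5 of 16. The part of these neighbourhoods in the input change of PCNA and TYMS was not tested. The median enrichment difference of the neighbours was 0.33 around PCNA and 0.45 around TYMS, against 0.20 over all protein-coding genes at this level.

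**Figure D5:**
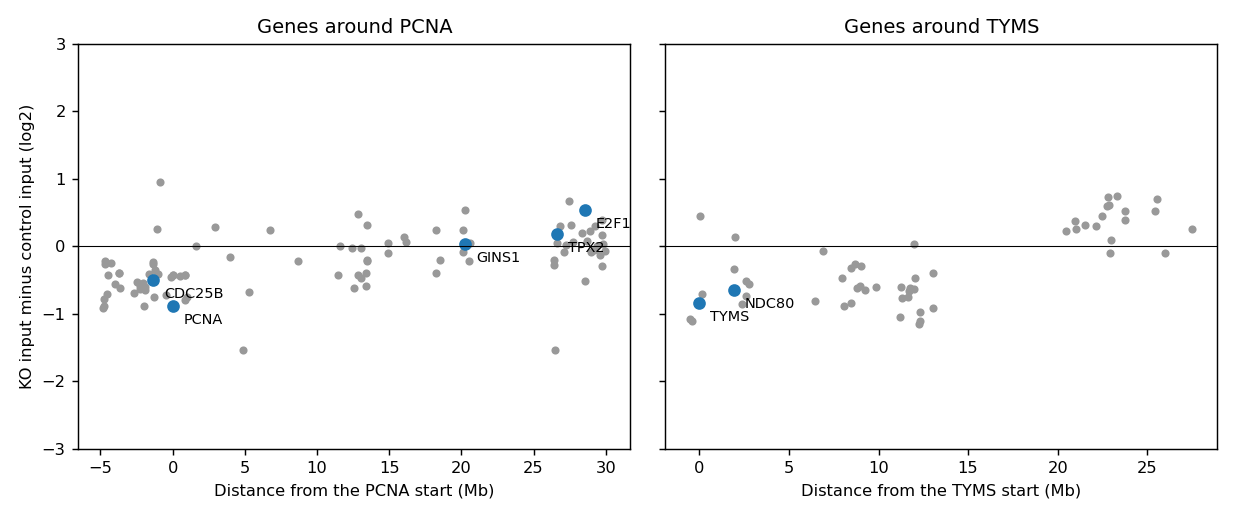
KO input minus control input (log2, y axis) of protein-coding genes by distance from the PCNA start (left) and the TYMS start (right) in Mb. Each grey point is 1 gene, and blue points are cell cycle genes of the lists. Most genes near PCNA and TYMS lie below 0 together with them, NDC80 near TYMS and CDC25B near PCNA included, and genes more than 20 Mb from TYMS lie mostly above 0.

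Promoter letters differed between the classes. In the 300 bases from 250 before to 50 after the RefSeq start, an E2F-type motif (TTTCCCGC, TTTGGCGC, TTTCGCGC or TTTGCCGC, either strand) was found in 8 of 12 S phase members and 1 of 13 mitotic members (CDK1), against 5.77% of 9681 protein-coding genes. A CHR motif (TTTGAA or TTCGAA, either strand) was found in 2 of 12 and 9 of 13, against 10.3%. CCAAT on either strand was found in 9 of 12 and 12 of 13, against 37.5%. The 160 bases before the MCM6 start, chr2:135876444-135876603 on the minus strand, are shown for their paired E2F letters, in capitals, where motifs of both strands overlap.
MCM6: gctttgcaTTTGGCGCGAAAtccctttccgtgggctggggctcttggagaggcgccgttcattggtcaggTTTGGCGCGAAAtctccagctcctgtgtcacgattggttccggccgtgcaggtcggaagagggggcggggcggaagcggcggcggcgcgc
The 200 bases before the TOP2A start, chr17:40417897-40418096 on the minus strand, are shown in the same way, with CHR letters of both strands and CCAAT letters of the opposite strand (read here as ATTGG) in capitals.
TOP2A: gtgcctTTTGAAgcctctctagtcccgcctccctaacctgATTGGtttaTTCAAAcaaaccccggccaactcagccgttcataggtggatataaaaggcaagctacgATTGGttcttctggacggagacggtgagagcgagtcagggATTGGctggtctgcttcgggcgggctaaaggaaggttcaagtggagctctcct
These matches describe letters and not binding. Members with and without a CHR match had called enrichment differences of both signs, as CCNB2 with 1 match was positive and CDK1 and TOP2A with more than 1 were negative.

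The annotated first base was set beside the enrichment difference. Of the 8 members that begin with A, 2 had a positive call (PCNA and TYMS) and 1 a negative call (TOP2A), with a median of 0.20. Of the 17 that begin with another base, 7 were positive and 2 negative, with a median of 0.34. Among all protein-coding genes with a RefSeq promoter, 28.1% of 4472 with A were positive and 5.48% negative, while 13.8% of 5209 without A were positive and 13.2% negative. The medians were 0.37 and 0.03. These members are few, and the gap between them and all genes was not tested.

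Other replication and mitosis genes, 55 and 57 with a row, were called in the enrichment difference in 17 positive and 3 negative cases and in 14 and 4, where the shares of all genes were 15.8% and 13% and those of protein-coding genes 19.9% and 10.2%. Their medians were 0.49 and 0.37, against 0.18 over protein-coding genes. Among replication genes, the histone chaperone ASF1B had IPs of 105 ± 9.41 CPM (control) and 53.2 ± 4.30 CPM (KO; SD, n = 3), a difference of 1.01 (SE 0.17, adjusted p = 0.000155). The polymerase epsilon subunit POLE3 (0.81, SE 0.13) was positive as well. The clamp loader subunit RFC4 was negative, at -1.21 (SE 0.21, adjusted p = 0.000246), with IPs of 24.2 ± 3.22 CPM (control) and 52.1 ± 10.3 CPM (KO; SD, n = 3). Thus the clamp PCNA and this subunit of its loader had called differences of opposite sign.

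Genes of these lists are named by their adjusted p. Among mitosis genes, the CDK-binding protein CKS2 fell from 415 ± 39.0 CPM in control IPs to 145 ± 6.92 CPM in KO IPs (SD, n = 3) at inputs of 347 ± 13.9 and 363 ± 31.4 CPM. Its enrichment difference of 1.58 (SE 0.13, adjusted p = 8.29e-08) exceeded that of every member. The spindle midzone protein PRC1 (1.24, SE 0.15), the centrosomal kinase NEK2 (1.12, SE 0.16) and the mitotic transcription factor FOXM1 (1.13, SE 0.18) were positive as well. In the inputs, where 5.56% of all genes rose and 5.67% fell, 1 replication gene of this list was called, lower (GINS3, -0.88, adjusted p = 0.0276), and 3 mitosis genes rose and 2 fell. Those that fell were the kinetochore protein NDC80 (-0.65, SE 0.12, adjusted p = 0.000861), 1.91 Mb from TYMS, and the phosphatase CDC25B (-0.49, SE 0.10, adjusted p = 0.00282), 1.33 Mb from PCNA. NEK2 (0.48, adjusted p = 0.00887) and the ubiquitin-conjugating enzyme UBE2S (0.41, adjusted p = 0.00658) were among those that rose.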

How the data were processed

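MEL624 RNA of control and PCIF1 KO cells was measured as input and antibody 4 IP in 12 libraries. The authors deposited 1 table of log2 CPM at transcription starts for 16009 genes. The tools named, per the submitters' processing notes, are edgeR 3.12.1 in R 3.3.3, featureCounts, deepTools 3.0.2, SAMtools 1.7 and HISAT2 2.0.4, with build hg38. Not given in the sources used here are the window, annotation, strand setting, gene filter and added count. Every value corresponded to a whole read number within 0.01, which gave the depths. An added count understates changes of genes with few reads, and reads lacked molecular identifiers, so that they need not be separate molecules. All 12 columns were assigned to groups by name, and their numbers are not tied to the labels' letters.

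A limma 3.58.1 fit (R 4.3.3) of 4 group means, with a mean-variance trend, was made to all genes, with Benjamini-Hochberg adjustment per contrast. Names and positions come from GENCODE 44 (15903 identifiers matched), promoters from RefSeq GRCh38.p14. All 31 members are described by rule, and from each other list at most 4 called genes with the smallest adjusted p in the enrichment difference and in the input change, 1 of which is not reported here. Members and lists were chosen with earlier results of these data known. Alternatives were scaling, pseudocount, filters, fewer groups, limma voom, a block by column number and leaving out each library.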

Additional observations from a re-analysis of the deposited data

Results flagged for a closer look

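For 14 members the effect of the antibody differed between the genotypes by the test of the difference itself, the interaction term of the limma fit at an adjusted p below 0.05. Of all genes, 28.8% were called by the same test. Enrichment was lower in KO than in control cells for MCM2 (1.37), AURKB (1.23), BIRC5 (1.16), PCNA (1.12), CCNA2 (0.998), E2F1 (0.929), TYMS (0.836), MCM4 (0.826), MCM3 (0.784), MCM6 (0.708) and CCNB2 (0.489), given as log2 differences. It was higher in KO cells for CCNB1 (-0.931), CDK1 (-0.851) and TOP2A (-0.417), and centring on ribosomal protein mRNAs ended these 3 calls (CCNB1 -0.39, CDK1 -0.31, TOP2A 0.13, a turned sign). The value of MCM2 rests on the fewest reads of these.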

How the results depend on the processing

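The members' counts were within 1.5 times their main values under every setting except centring on 80 ribosomal protein mRNAs and, for inputs, limma voom and leaving out a library. With that centring the members called were 25 higher and 3 lower in control enrichment, 9 lower in KO enrichment, 20 positive and 0 negative in the enrichment difference, and 1 higher between IPs. The shares of all genes called with it are not set beside these counts. That centring also turned signs. Those listed belong to members called with or without the centring. In control enrichment these became MCM2 0.69, MCM4 0.44, RRM1 0.0873, RRM2 0.50, E2F1 0.97, CCNB1 0.94, CCNB2 1.12, CDK1 0.90, PLK1 0.75, AURKA 0.35, CDC20 0.98, TPX2 0.20 and KIF20A 1.12. In KO enrichment they became RRM2 0.14, TYMS 0.35, CCNB2 0.0896, PLK1 0.19, AURKA 0.0197 and CDC20 0.20. In the enrichment difference they became TOP2A 0.13 and BUB1B 0.54. Between IPs they became RRM2 -0.43, MKI67 -0.38, TOP2A -0.11, AURKA -0.12, BUB1B -0.49 and TPX2 -0.48. Each turn follows from a shift of the same size for every gene within a comparison. That shift took the all-gene median from -0.01 to 1.12 in control enrichment and from -0.07 to 0.52 in KO enrichment. In the enrichment difference the median went from 0.06 to 0.60, and between IPs from -0.04 to -0.54. Why the ribosomal protein mRNAs themselves differ between the libraries was not tested. For inputs, limma voom, chosen after seeing the data, called 4 members higher (MCM4, E2F1, CDC6 and PLK1). Leaving out each library in turn gave 1 to 2 members higher and 2 lower in the inputs, 10 to 11 positive and 2 to 3 negative in the enrichment difference, 9 higher and 8 to 10 lower in control enrichment, 9 to 11 and 13 to 16 in KO enrichment, and 5 to 7 and 11 to 15 between IPs. Deviations of input and IP with the same column number correlated at 0.0697 to 0.244, and those with unlike numbers at -0.223 to 0.0512. Each library correlated best with its own number. The numbers may therefore mark pairs, but the correlations are weak, the labels do not state a pairing, and the main fit has no block. With a replicate block by column number, 9 members were higher and 11 lower in control enrichment, 10 and 16 in KO enrichment, and 11 positive and 3 negative in the enrichment difference. CCNB1 in control enrichment gained a call (-0.20, adjusted p = 0.0192), and the block changed no other member's call. A block cannot be fitted across genotypes, since their libraries share no number that the labels give. The 2 planned count tests were not run because the table holds log2 values. Depth limits CCNE2, MCM2, MCM5, MCM7, KIF20A and FEN1, with 1, 4, 11, 12, 13 and 15 reads in their poorest libraries.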

Other observations

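Among 21 regulators of G1 with a row, CDKN1A, which encodes the CDK inhibitor p21, fell in the inputs from 115 ± 6.95 CPM in control cells to 47.0 ± 7.73 CPM in KO cells (SD, n = 3), a change of -1.30 (SE 0.13, adjusted p = 2.03e-06 in limma). CDK7, the kinase that activates other CDKs, also fell (-0.41, adjusted p = 0.0175). The INK4 inhibitor gene CDKN2D (0.72, adjusted p = 0.0142) and CDK4, the partner of D-type cyclins (0.35, adjusted p = 0.0319), rose, and in all 3 rose and 2 fell, where 5.56% of all genes rose and 5.67% fell.

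In the enrichment difference 6 of these 21 genes were positive and 3 negative, with a median of 0.08, where 15.8% and 13% of all genes were, with a median of 0.06. CDKN1B, which encodes the inhibitor p27, had the lowest value, -1.48 (SE 0.19, adjusted p = 8.15e-06). Its inputs held 73.6 ± 11.4 CPM in control cells and 72.8 ± 6.63 CPM in KO cells, and its IPs 91.2 ± 14.03 CPM and 253 ± 33.5 CPM (SD, n = 3). The pocket protein gene RBL2 was negative as well (-1.03, SE 0.22), while CDK4 (0.98, SE 0.15) and TFDP1, the partner of E2F factors (0.96, SE 0.14), were positive.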
